A study of Mus musculus with 6 samples.

Results

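A set of 9 genes of naive-like, or central, regulatory T (Treg) cells was followed in RNA-seq libraries of splenic Treg cells with and without the microRNA miR-142. These 9 genes were chosen by name from the 24421 genes of the count matrix. They are the transcription factor genes Tcf7, Lef1, Klf2, Klf3, Bach2, Satb1 and Foxo1, the receptor gene S1pr1, and Cd44, an adhesion receptor gene whose level is low in naive-like and high in activated T cells. All 9 passed the filter on low counts that left 11658 genes to be tested. The Treg cells were sorted as CD4+YFP+ cells from spleens of untreated C57BL/6 female mice aged 8 to 11 weeks, with 3 libraries from biological replicates in each group. WT libraries came from Foxp3Cre-YFP mice and KO libraries from Foxp3Cre-YFPmiR-142fl/fl mice. Both groups thus carried a Cre recombinase fused to yellow fluorescent protein and expressed from the Foxp3 promoter, which limits deletion to cells that have switched on Foxp3. The comparison addresses how the naive-like part of the Treg program stood in miR-142-deficient Treg cells taken from these mice. The paper reports fatal systemic autoimmune disease in the KO mice and gives their inflammation as a conceivable source of expression changes in Treg cells. Loss of miR-142 in the cells and the inflamed host cannot be told apart in this comparison.

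Treg cells that leave the thymus and recirculate through lymphoid organs keep much of the gene program of naive T cells. FOXO1 is a transcription factor that stays in the nucleus while AKT signaling is weak, and there it drives homing and survival genes, Klf2 among them. KLF2 in turn maintains S1pr1, the sphingosine 1-phosphate receptor that lets lymphocytes exit lymphoid organs. TCF-1, encoded by Tcf7, and LEF-1 are related factors that hold T cells in a less differentiated state. BACH2 represses effector genes at sites that AP-1 factors would otherwise use, and SATB1 organizes chromatin in thymocytes and supports Treg lineage commitment, but is low in mature Treg cells. When Treg cells are activated into effector Treg cells, this program recedes and Cd44 increases.

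Mature miR-142 has 2 strands, and a microRNA binds its targets mainly through bases 2 to 8, the seed. Both strands are shown to set the seeds beside the genes that carry a match (RefSeq, GRCm38.p6, plus strand, miR-142a-3p at chr11:87756903-87756925 and miR-142a-5p at chr11:87756867-87756887). Capitals mark the seed.

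miR-142a-3p: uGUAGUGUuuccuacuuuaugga
miR-142a-5p: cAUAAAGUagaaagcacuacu

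The longest annotated 3′ UTR of each gene (GENCODE vM21, GRCm38) was searched for ACACTAC, the match to the 3p seed, for AACACTA, the match to bases 3 to 9 of the same strand, and for ACTTTAT, the match to the 5p seed. These 7-base matches were found in the 3′ UTR of 7.08%, 10.3% and 15.9% of 10786 tested genes with an annotated 3′ UTR, and 26% held at least 1 of them. Among the 9 genes, Klf3, Bach2, S1pr1 and Cd44 held a match. No match was found in Tcf7, Lef1, Klf2, Satb1 or Foxo1. The matched stretches are shown so that their letters can be read against the seeds above. Each is written 5′ to 3′ on the strand of the transcript, with the match in capitals.

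Klf3, 3p seed: ctcaggatccaACACTACctgaactggga
Bach2, 3p seed: gaatttggtgcACACTACagcagtcttag
Bach2, 5p seed: cttgttttaatACTTTATggttgccactg
S1pr1, 5p seed: taacgaagtctACTTTATttgaattatac
Cd44, 5p seed: ttttttaggttACTTTATcagaagcataa

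The Klf3 match, at chr5:64830874-64830880 on the plus strand in exon 6 of 6, starts 1 base after a match to bases 3 to 9, so both 3p matches are a single place. The Bach2 matches lie on the plus strand at chr4:32580428-32580434 and chr4:32584164-32584170 in exon 5 of 5, and the first starts at base 132 of the 3′ UTR. The S1pr1 match lies on the minus strand at chr3:115711060-115711066 in exon 2 of 2, and that of Cd44 on the minus strand at chr2:102813441-102813447 in exon 19 of 19. A match is a description of the sequence and not a measured binding site.

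The libraries held between 13883069 and 24042994 counted reads, and 3 counts, the least taken here as detection, corresponded to between 0.125 and 0.216 CPM, the counted reads relative to a library total set to the same number of reads in each. All levels are CPM scaled by trimmed mean of M values (TMM) factors, which lay between 0.953 and 1.05. Mir142b, annotated on the opposite strand of the deleted locus, was at 9.05, 4.14 and 5.81 CPM in WT and at 0.389, 0.379 and 0.342 CPM in KO, which fits the labels, and Mir142 itself had 0 counts in all 6 libraries. Treg markers were present throughout, with Foxp3 between 536 and 749 CPM. Their levels were not all alike between the groups. At an edgeR FDR under 0.05, Il2ra and Tnfrsf18 were higher in KO, Nrp1 was lower and 5 of the 8 markers were not called. The share called was 37.5%, against 18.8% of all genes tested. KO replicate 1 stood apart by transcripts of other cells. All 9 B cell markers, all 10 monocyte and macrophage markers and all 8 neutrophil markers were highest in that library. Their sums there were 319, 3185 and 881 CPM, against 9.31 to 41.9, 7.02 to 55.0 and 0.221 to 4.45 CPM in the other 5 libraries. Cd3e, a T cell receptor component, was at 590, 594 and 594 CPM in the KO libraries and between 626 and 733 CPM in WT.

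A single gene of the 9, Satb1, passed the threshold in the comparison of KO with WT, and it was higher in KO. Satb1 (chr17:51736187-51833290, minus strand) was at 350, 468 and 417 CPM in WT and at 594, 870 and 605 CPM in KO. The KO values were all higher than the WT values, with the highest value in KO replicate 2. The fitted increase was 1.67-fold (log2 fold change 0.74 ± 0.18 SE, n = 3 per group, edgeR quasi-likelihood F (QLF) test with Benjamini-Hochberg adjustment, FDR = 0.0303), with a 95% confidence interval of 0.32 to 1.16 on the log2 scale. An exact two-sided permutation test on log2(CPM + 0.5) gave p = 0.1, the smallest p that 3 against 3 libraries allow. The call was lost when any 1 WT library was left out, with an edgeR QLF FDR of 0.109 without WT replicate 1, 0.0701 without WT replicate 2 and 0.0985 without WT replicate 3. Across all genes tested, 18.8% passed the same threshold, 11.6% as higher and 7.27% as lower in KO. Those were 1350 higher and 847 lower genes, a split that became 1064 and 1201 when TMM factors were left out, under which Satb1 was still called. The 1 gene of 9 called higher is thus near the share over all genes.

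Tcf7 had the largest difference toward lower values. It was at 983, 1009 and 1034 CPM in WT and at 377, 832 and 482 CPM in KO. All 3 KO libraries lay below all WT libraries, and the WT libraries lay within a narrow range while the KO libraries spread 2.21-fold between replicates 1 and 2. The log2 fold change was -0.84 ± 0.27 (SE, n = 3 per group), with a 95% confidence interval of -1.46 to -0.22, and it missed the threshold (edgeR QLF FDR = 0.0686, exact permutation p = 0.1). Over all genes tested, the KO libraries were all below WT in 18.8% and all above WT in 22.2%, against 1 of the 9 genes in each direction here, Tcf7 and Satb1. Tcf7 was called lower by DESeq2 (log2 fold change -0.85, FDR = 0.0041) and by the edgeR QLF test without TMM factors (log2 fold change -0.92, FDR = 0.0429).

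**Figure D1:**
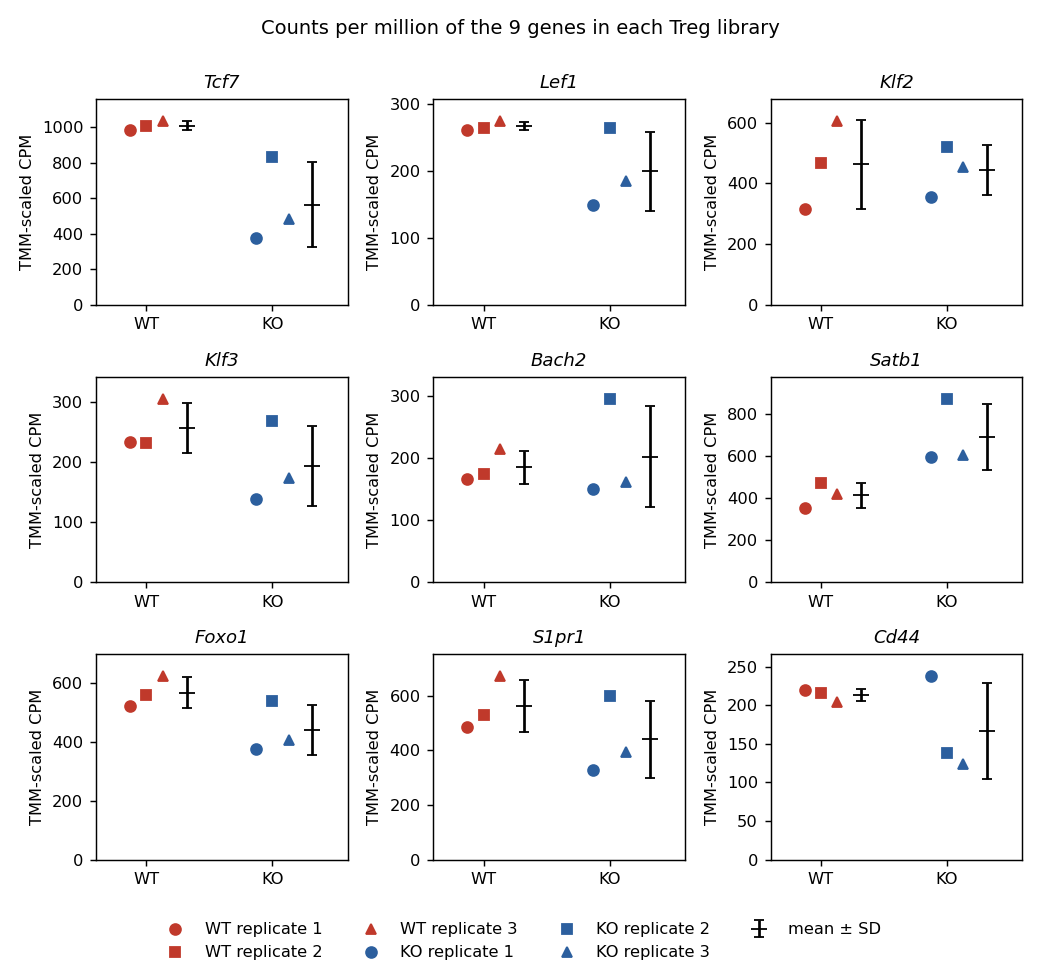
TMM-scaled CPM (y axis, from 0) of the 9 genes in the 3 WT (red) and 3 KO (blue) libraries, with a marker shape for each replicate number and the mean ± SD of each group in black. Satb1 lies above WT and Tcf7 below WT in all KO libraries, and KO replicate 2 (square) is the highest KO library in 8 of the 9 genes.

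Lef1, the relative of Tcf7, did not separate the groups. Its levels were 262, 265 and 274 CPM in WT and 149, 264 and 185 CPM in KO. KO replicates 1 and 3 were below every WT library, whereas KO replicate 2 was within the WT range. The log2 fold change was -0.42 ± 0.19 (SE, n = 3 per group), with a 95% confidence interval of -0.87 to 0.03 (edgeR QLF FDR = 0.169, exact permutation p = 0.2).

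Foxo1 and Klf3 had the same arrangement of libraries. Foxo1 was at 521, 560 and 623 CPM in WT and at 377, 538 and 407 CPM in KO (log2 fold change -0.37 ± 0.15 SE, n = 3 per group, edgeR QLF FDR = 0.132, exact permutation p = 0.2). Klf3, which encodes a KLF repressor that recruits CtBP and limits KLF targets, was at 235, 232 and 306 CPM in WT and at 139, 268 and 174 CPM in KO (log2 fold change -0.41 ± 0.24 SE, n = 3 per group, edgeR QLF FDR = 0.268, exact permutation p = 0.3). In both genes KO replicates 1 and 3 lay below the WT libraries and KO replicate 2 fell among them. The 95% confidence intervals were -0.72 to -0.01 for Foxo1 and -0.97 to 0.15 for Klf3. The Klf3 transcript, with its 3p match, was not higher in KO in any fit run.

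Klf2 was spread as widely among WT libraries as between groups. It was at 314, 467 and 605 CPM in WT and at 355, 520 and 455 CPM in KO. The KO values all lay inside the WT range (log2 fold change -0.06 ± 0.24 SE, n = 3 per group, 95% confidence interval -0.63 to 0.51, edgeR QLF FDR = 0.885, exact permutation p = 0.9). Its direction turned to 0.06 without KO replicate 1 and to 0.18 without WT replicate 3.

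S1pr1, the egress receptor downstream of KLF2, was at 485, 531 and 671 CPM in WT and at 329, 598 and 395 CPM in KO. KO replicates 1 and 3 were again below WT and KO replicate 2 was within the WT range. The log2 fold change was -0.35 ± 0.23 (SE, n = 3 per group), with a 95% confidence interval of -0.89 to 0.19 (edgeR QLF FDR = 0.321, exact permutation p = 0.3).

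Bach2, the member with matches to both seeds, was at 166, 173 and 214 CPM in WT and at 150, 295 and 161 CPM in KO. KO replicate 2 was above all WT libraries and the other KO libraries were below them. The log2 fold change was 0.13 ± 0.26 (SE, n = 3 per group), with a 95% confidence interval of -0.48 to 0.74 (edgeR QLF FDR = 0.758, exact permutation p = 1), and it turned to -0.24 without KO replicate 2.

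Cd44 ran against the order of the other genes. It was at 219, 215 and 204 CPM in WT and at 237, 138 and 124 CPM in KO. KO replicate 1 was above every WT library and KO replicates 2 and 3 were below every WT library. The log2 fold change over all libraries was -0.35 ± 0.23 (SE, n = 3 per group), with a 95% confidence interval of -0.90 to 0.19 (edgeR QLF FDR = 0.32, exact permutation p = 0.4). Without KO replicate 1, the library with the B cell, macrophage and neutrophil transcripts, Cd44 was called lower, with a log2 fold change of -0.72 (edgeR QLF FDR = 0.0031). The part of other cells' transcripts in the Cd44 level of KO replicate 1 was not tested. Fewer cells of a kind and less RNA per cell cannot be told apart in these bulk libraries.

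**Figure D2:**
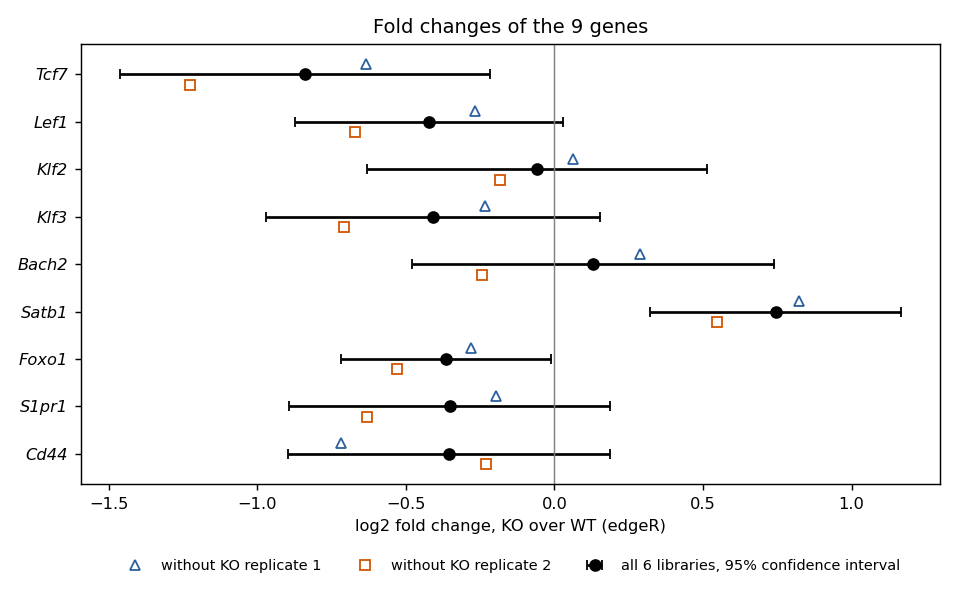
Fitted log2 fold change of KO over WT (x axis) for the 9 genes, from all 6 libraries with the 95% confidence interval (black), without KO replicate 1 (blue triangles) and without KO replicate 2 (orange squares). The interval of Satb1 lies above 0 and those of Tcf7 and Foxo1 lie below it. Leaving out KO replicate 2 moves every gene but Cd44 toward lower values, as it must where that library is the highest KO library.

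The result for the group as a whole turned on KO replicate 2. In 8 of the 9 genes, all but Cd44, KO replicate 2 was the highest KO library and KO replicate 1 the lowest. Over all genes tested, KO replicate 2 was the highest KO library in 37.1% and KO replicate 1 the lowest in 33.4%. Set against the WT mean, 7 of the 9 genes were lower in KO replicate 1, 8 in KO replicate 3 and 4 in KO replicate 2. The same count was not made over all genes tested, so these numbers have no background share beside them.

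Without KO replicate 2, 6 of the 9 genes were called. That library was the highest KO library in 8 of these same genes, so leaving it out had to lower their fold changes. The lower calls in that fit are thus not separate support. Satb1 was called higher, where the background was 12.3% of genes. Tcf7 fell by 1.22 on the log2 scale (edgeR QLF FDR = 0.0035), Lef1 by 0.67 (edgeR QLF FDR = 0.0124), Klf3 by 0.71 (edgeR QLF FDR = 0.0310), S1pr1 by 0.63 (edgeR QLF FDR = 0.0432) and Foxo1 by 0.53 (edgeR QLF FDR = 0.0223), where 8.19% of genes were called lower. Klf2, Bach2 and Cd44 were not called in that fit. Without KO replicate 1, Satb1 was called higher, against 9.69% of genes, and Cd44 lower, against 7.59%. In that fit Tcf7 had a log2 fold change of -0.63 (edgeR QLF FDR = 0.0701). No marker list set KO replicate 2 apart as it did KO replicate 1, since its B cell sum was 9.31 CPM, its neutrophil sum 0.303 CPM and its monocyte and macrophage sum 55.0 CPM, the highest after that of KO replicate 1.

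Levels can be compared between the genes only per length of transcript, here as CPM per kilobase of the exons of annotated protein-coding transcripts. The exons of all such transcripts of a gene were merged, to 12131 bases for Satb1 and 2625 for Tcf7. Exons not used in Treg cells thus lower a gene's value, and the order below depends on this choice. In WT, Tcf7 led with 384 ± 9.71 CPM per kilobase (SD, n = 3), followed by Klf2 with 250.1 ± 78.7, S1pr1 with 185 ± 31.7, Lef1 with 76.1 ± 1.85 and Foxo1 with 65.5 ± 5.97. Klf3 followed with 47.1 ± 7.71, then Cd44 with 37.6 ± 1.41, Satb1 with 33.9 ± 4.89 and Bach2 with 20.8 ± 2.93. The WT ranges overlapped between the neighbours Klf2 and S1pr1 and between Cd44 and Satb1, and not between the other neighbours. In KO, Tcf7 was at 215 ± 90.7 and Klf2 at 240.1 ± 45.1 CPM per kilobase, and their ranges overlapped, while Satb1 was at 56.9 ± 12.9 and Lef1 at 56.8 ± 16.7. Reads were counted without regard to strand, and exons of Lef1, Klf3, Bach2, Foxo1 and Satb1 overlap exons of noncoding genes annotated on the opposite strand, whose reads cannot be told apart from theirs.

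Promoter windows, 250 bases before to 50 after a start site, were searched on both strands for CACCC, bound by KLF factors, GTAAACA, bound by FOXO factors, and CTTTGA, bound by TCF and LEF factors. RefSeq (GRCm38.p6) gave 16 windows for 8 of the 9 genes, with S1pr1 named only. CACCC occurred in 12 of the 16, against 57.5% of 32851 promoters. Lef1 and Satb1 gave 4 of the 12 each, and some windows of these 2 genes overlap, so the windows are not independent. By gene, Klf2, Klf3, Lef1, Satb1 and Tcf7 held CACCC, and Bach2, Cd44 and Foxo1 did not. GTAAACA occurred in 1, a Tcf7 window, against 3.65%, and CTTTGA in 2, 1 of Lef1 and 1 of Bach2, against 16%. These matches are shown because Foxo1, Tcf7 and Lef1 are members themselves. Capitals mark the motif or its complement.

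Tcf7, FOXO motif: cctttataggaGTAAACAgacccccgcca
Bach2, TCF/LEF motif: ctgtgttgttcTCAAAGttgagtagagt
Lef1, TCF/LEF motif, first match: aaaatacatggTCAAAGgaaaataggta
Lef1, TCF/LEF motif, second match: attgtctgttcTCAAAGtcaggtcttgc

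The Tcf7 stretch is at chr11:52282577-52282605 on the minus strand, that of Bach2 at chr4:32417331-32417358, and those of Lef1 at chr3:131156103-131156130 and chr3:131156163-131156190, all 3 on the plus strand. No binding was measured in this study at these places.

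Other genes of the central Treg program gave a mixed picture beside the members. Of 15 such genes, 5 were called lower, 1 higher and 9 were not called. Calls made up 40% of this list, against 18.8% of all genes tested. The median log2 fold change was -0.09, against 0.02 over all genes tested. For this list and those below, the share over all genes tested was 11.6% called higher and 7.27% lower. It was 9.69% and 7.59% without KO replicate 1, and 12.3% and 8.19% without KO replicate 2. Actn1, encoding the actin cross-linker alpha-actinin, was at 304, 342 and 319 CPM in WT and at 132, 95.4 and 105 CPM in KO, and fell by 1.54 on the log2 scale (edgeR QLF FDR = 0.000996). Il6ra, the interleukin-6 receptor alpha chain, was at 287, 288 and 339 CPM in WT and at 94.1, 138 and 120 CPM in KO, and fell by 1.38 (edgeR QLF FDR = 0.0022). Rasgrp2, a Rap activator, fell by 0.63 (edgeR QLF FDR = 0.0137). In these 3 genes KO replicate 2 lay with the other KO libraries, below all WT libraries. Igfbp4, encoding a binding protein of insulin-like growth factors, rose by 1.06 (edgeR QLF FDR = 0.0161). Ccr7, a chemokine receptor that guides T cells into lymph nodes, was at 222, 204 and 275 CPM in WT and at 150, 368 and 162 CPM in KO (edgeR QLF FDR = 0.940). Ccr7 thus had the order of KO libraries seen in the members. Without KO replicate 1, 3 genes of this list were called higher and 4 lower.

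Of 25 effector Treg genes, 10 were called higher, none lower and 15 not called by the edgeR QLF test. Calls thus made up 40% of the list, as they did of the central list, against 18.8% of all genes tested. The median log2 fold change was 0.53. Pdcd1 had a log2 fold change of -0.93 and was the 1 gene lower at an unadjusted p under 0.05, as it was the 1 called lower by DESeq2. Itgae, the CD103 integrin chain, was at 133, 127 and 102 CPM in WT and at 597, 479 and 558 CPM in KO, and Klrg1, a receptor of terminally differentiated cells, at 59.1, 40.0 and 46.0 CPM in WT and at 294, 197 and 321 CPM in KO. The increases were 4.52-fold (edgeR QLF FDR = 0.000508) and 5.60-fold (edgeR QLF FDR = 0.0011). Tnfrsf9 rose 1.98-fold (edgeR QLF FDR = 0.0026) and Gzmb, encoding granzyme B, 10.7-fold (edgeR QLF FDR = 0.0069), and Gzmb stood at 120, 28.3 and 46.2 CPM in KO, highest in replicate 1. Without KO replicate 1, 10 genes were still called higher, and 1 lower. The central and effector lists were chosen with results of these data known.

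**Figure D3:**
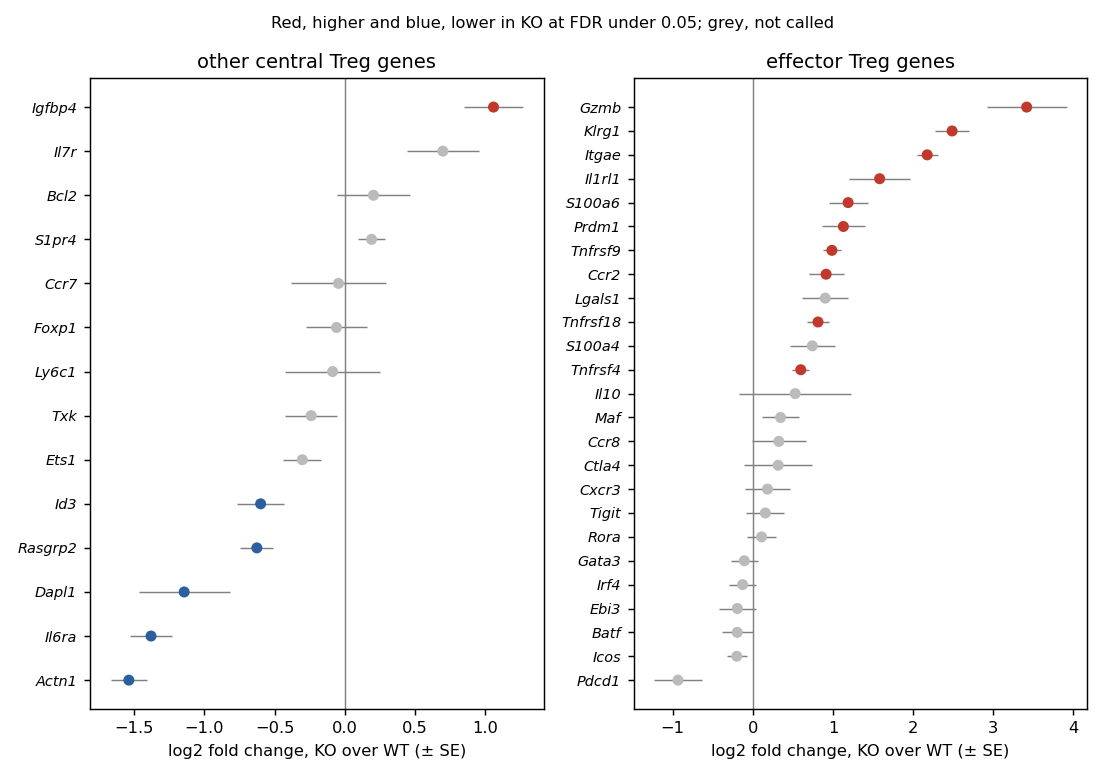
Log2 fold change of KO over WT with its SE (x axis) for other central Treg genes (left, 1 of the 15 not drawn) and 25 effector Treg genes (right), in red where called higher, in blue where called lower and in grey where not called. Of the central genes 5 are blue and 1 is red, and of the effector genes 10 are red and none is blue.

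**Figure D4:**
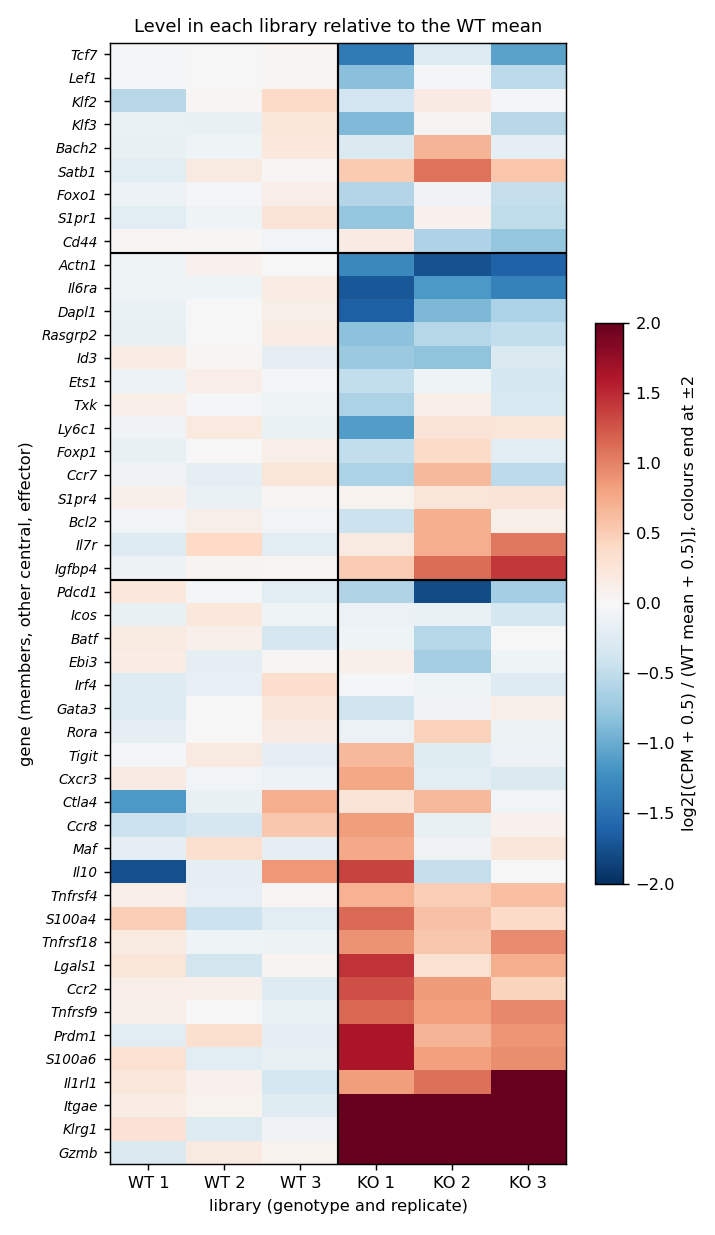
Level of each gene in each library relative to the mean of the WT libraries, as log2 with 0.5 CPM added to both, for the 9 genes (top), other central (middle, 1 of the 15 not drawn) and effector (bottom) Treg genes, in red where higher and blue where lower, with colours ending at 2 in either direction. In the top block the KO replicate 1 and 3 columns are mostly blue. The KO replicate 2 column there is near white or red except for Cd44, which is blue. Actn1 and Il6ra are blue and Itgae and Klrg1 red in all KO columns.

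Upstream of Foxo1, 19 genes that control FOXO factors or belong to the family were examined. Of these, 1 was called higher and 2 lower, 15.8% against 18.8% of all genes tested, with a median log2 fold change of -0.04. These counts became 2 higher and 1 lower without KO replicate 1, where Foxo4 was called higher (edgeR QLF FDR = 0.0424) and Pik3r1 was no longer called (edgeR QLF FDR = 0.0622), and 1 higher and 3 lower without KO replicate 2. Sgk1, a kinase that inactivates FOXO factors, was at 20.1, 39.7 and 64.5 CPM in WT and at 148, 102 and 103 CPM in KO, a 2.84-fold increase (edgeR QLF FDR = 0.0353). Phlpp1, a phosphatase that removes an activating phosphate from AKT, fell by 0.65 on the log2 scale (edgeR QLF FDR = 0.0144), and Pik3r1, the regulatory subunit of PI3 kinase, by 0.35 (edgeR QLF FDR = 0.0334). The relatives Foxo3 and Foxo4 had log2 fold changes of -0.24 (edgeR QLF FDR = 0.224) and 0.40 (edgeR QLF FDR = 0.0567). Of 11 genes known as FOXO targets, 1 was called higher, Pik3ip1, an inhibitor of PI3 kinase (2.02-fold, edgeR QLF FDR = 0.0454). The share called was 9.09%, against 18.8% of all genes tested. None of the 11 was called lower by edgeR, none was lower at an unadjusted p under 0.05 and none was called lower by DESeq2. The counts changed to 4 higher without KO replicate 1, and to 0 higher and 1 lower without KO replicate 2. Il7r, the interleukin-7 receptor and a textbook FOXO1 target, was at 225, 354 and 230 CPM in WT and at 307, 446 and 561 CPM in KO (edgeR QLF FDR = 0.1).

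Around S1pr1, 13 of 16 genes for sphingosine 1-phosphate receptors, synthesis, breakdown, transport and signaling were tested, with 2 called higher and 1 lower. The share called was 23.1%, against 18.8% of all genes tested. Of 12 genes left to test, 1 was called higher and 1 lower without KO replicate 1, and 1 higher and none lower without KO replicate 2. Spns2, an exporter of the lipid, was at 0.493, 0.328 and 0.221 CPM in WT and at 1.67, 1.06 and 1.30 CPM in KO (edgeR QLF FDR = 0.0163), near the limit of detection in WT. Mfsd2b, the exporter of blood cells, rose 2.66-fold (edgeR QLF FDR = 0.0267), and Sphk2, a kinase that makes the lipid, fell by 0.32 on the log2 scale (edgeR QLF FDR = 0.0419). Of the other receptors, S1pr4 was at 192, 163 and 181 CPM in WT and at 187, 211 and 213 CPM in KO (edgeR QLF FDR = 0.210), and S1pr2 at 23.3, 20.7 and 20.7 CPM in WT and at 25.2, 11.9 and 19.8 CPM in KO (edgeR QLF FDR = 0.656).

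Around Klf2 and Klf3, 13 of 17 other KLF and CtBP genes were tested, with 3 called higher. The share called was 23.1%, against 18.8% of all genes tested. Klf12, a CtBP-binding repressor like Klf3, was at 5.36, 4.63 and 4.76 CPM in WT and at 21.3, 17.9 and 10.7 CPM in KO (3.39-fold, edgeR QLF FDR = 0.0059). Klf8, of the same repressor group, rose 1.80-fold (edgeR QLF FDR = 0.0420) and was not called without KO replicate 1 (edgeR QLF FDR = 0.0632). Of 12 genes left to test, 2 were called higher without KO replicate 1, as were 2 without KO replicate 2. Klf1, the erythroid factor, was at 0.0616, 0.123 and 0.111 CPM in WT, at or under 3 counts in each of those libraries, and at 1.39, 1.14 and 1.64 CPM in KO (edgeR QLF FDR = 0.0024). No gene of this list was called lower by edgeR, none was lower at an unadjusted p under 0.05, and DESeq2 called none lower.

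Around Tcf7 and Lef1, 12 family members and partners were tested, with 2 called higher and 2 lower. The share called was 33.3%, against 18.8% of all genes tested. Ctnnb1, encoding beta-catenin, the coactivator of TCF and LEF factors, was at 289, 295 and 236 CPM in WT and at 640, 687 and 717 CPM in KO (2.49-fold, edgeR QLF FDR = 0.0010). Of the Groucho corepressors, Tle2 rose 2.47-fold (edgeR QLF FDR = 0.0138), and Tle4 fell by 0.42 on the log2 scale (edgeR QLF FDR = 0.0458). Tle2 was between 2.21 and 3.04 CPM in WT and between 5.15 and 7.60 CPM in KO. Bcl9l, a beta-catenin cofactor, fell by 0.55 (edgeR QLF FDR = 0.0448). Neither Bcl9l (edgeR QLF FDR = 0.0658) nor Tle4 (edgeR QLF FDR = 0.0734) was called without KO replicate 1, and the 1 gene called lower was Tle3, another Groucho corepressor (edgeR QLF FDR = 0.0208). Without KO replicate 2, 3 genes were called higher, with Tcf7l2 (edgeR QLF FDR = 0.0433) added, and 2 lower. The relatives Tcf7l1 and Tcf7l2 were at 6.74 CPM or less in all libraries, except for Tcf7l2 at 21.9 CPM in KO replicate 1, and were not called with all 6 libraries.

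For Bach2 and Satb1, 12 of 13 relatives and partners were tested and the edgeR QLF test called none, against 18.8% of all genes tested. Of the 12, 1, Ncor1, was at an unadjusted p under 0.05 and none was called by DESeq2. Ncor1, a corepressor, was at 694, 799 and 796 CPM in WT and at 589, 651 and 675 CPM in KO (edgeR QLF FDR = 0.123), and Bach1, the relative of Bach2, had a log2 fold change of 0.11 (edgeR QLF FDR = 0.783). For Cd44, 10 of 14 genes for its ligand hyaluronan, its cytoskeletal linkers and its sheddases were tested. None was called by the edgeR QLF test, against 18.8% of all genes tested. DESeq2 called 1 of them, and 2 were at an unadjusted edgeR QLF p under 0.05. Those were Mmp9 and Mmp14, proteases that cleave or bind CD44. Mmp9 was at 4.62, 3.73 and 4.09 CPM in WT and at 61.4, 8.93 and 8.01 CPM in KO, and Mmp14 at 91.1 CPM in KO replicate 1 against 7.08 to 21.0 CPM elsewhere. Both were highest in the library with other cells' transcripts, as Cd44 was, and the source of their transcripts was not tested. Without KO replicate 1, 1 gene of this list was called higher, Mmp9 (log2 fold change 1.02, edgeR QLF FDR = 0.0140). It was also the 1 called higher without KO replicate 2 (edgeR QLF FDR = 0.0350).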

How the data were processed

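Splenic CD4+YFP+ Treg cells gave 3 WT and 3 KO libraries. Raw read counts per gene were deposited by the authors, who aligned 51-base single-end reads to mm10 with HISAT and counted them without strand with featureCounts. No column of another series or sample was present.

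Testing of the counts used edgeR 4.0.16 under R 4.3.3 (TMM, CPM over 1 in at least 3 libraries, glmQLFit and glmQLFTest, KO against WT, no covariate), with Benjamini-Hochberg adjustment over 11658 genes and a threshold of 0.05. The common biological coefficient of variation was 0.212. Standard errors and 95% intervals came from the quasi-likelihood fit. They were tested only on data simulated with the same spread for all genes, so that test does not show how well they hold in these libraries. DESeq2 1.42.0 was an alternative, as were other scalings, filters, a replicate block and leaving out each library. Tables and permutation tests used Python 3.11.15, pandas 2.3.3 and scipy 1.17.1. Sequences came from GENCODE vM21 and RefSeq. The protein comparison planned for related members was not analysed here.

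The members, gene lists and marker lists were chosen with earlier results of these data known. Named are all 9 members, the target, up to 4 genes with the smallest p in each list, family relatives of members and, for a called member, the gene with the nearest profile. Pdcd1 and Ccr7 were named after their values were seen. The values of 1 listed gene are not reported here, though it stays in the counts.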

Additional observations from a re-analysis of the deposited data

How the results depend on the processing

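Satb1 kept its call under all 8 alternatives of scaling, filter, test and block other than a stricter threshold, and lost it without any 1 WT library. Of the fold changes of the 9 genes under all alternatives, 111 kept direction and side of the threshold, 9 came past it, 3 fell behind it and 3 turned, namely Klf2 to 0.18 without WT replicate 3 and to 0.06 without KO replicate 1, and Bach2 to -0.24 without KO replicate 2. With 1 library left out, the log2 fold change ranged from -0.30 to 0.18 for Klf2 and from -0.24 to 0.29 for Bach2. The number of the 9 genes called was 2 without TMM factors, 2 with DESeq2 and 0 at an FDR under 0.01 (edgeR, 3 at an unadjusted p under 0.05), and ranged from 0 to 6 when 1 library was left out. At 0, without a WT library, 2 or 3 genes had an unadjusted edgeR p under 0.05. The number whose groups did not overlap was 4 without TMM factors, where 42.6% of all genes did not overlap, and 2 to 7 when 1 library was left out, where the share of all genes rose from 41% with all libraries to between 45.3% and 54.8%, the last beside the 7. Over all genes the number called was 2863 with DESeq2, 686 at an FDR under 0.01 and 691 to 2340 when 1 library was left out. The list counts without KO replicate 2 were chosen after seeing the data. The cause of these changes was not tested.

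With the replicate number as a block, 1606 genes were called and 2 of the 9, Satb1 and Tcf7, the latter at a log2 fold change of -0.92 (edgeR QLF FDR = 0.0415). Deviations from the group mean had correlations of 0.07, -0.01 and -0.19 between same-numbered libraries. Between differently numbered libraries they ranged from -0.17 to 0.20. With 3 libraries per group, these values cannot decide whether the numbers pair the samples.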

Other observations

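The tested gene with the profile nearest to Satb1 over the 6 libraries was Gm13375, at a root mean square distance of 0.06 on the log2 scale, with 0.985, 1.48 and 1.11 CPM in WT and 2.05, 2.95 and 2.05 CPM in KO, close to the filter on low counts. The nearest of the next 2 at a higher level, chosen after its values were seen, was Taok1, a stress-activated kinase gene, at 205, 258 and 256 CPM in WT and 312, 452 and 320 CPM in KO, at a distance of 0.09.

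Of 11 other KLF genes tested, 6 had, like Klf2, their lowest WT level in WT replicate 1, and 2 of them, Klf4 and Klf6, were there more than 2-fold below both other WT libraries. Klf4 was at 1.42 CPM in that library and at 49.8 and 66.9 CPM in the other WT libraries, and Klf6 at 195, 731 and 901 CPM. Fos, at 54.3, 1061 and 550.0 CPM, and Junb, at 476, 1470 and 3080 CPM, chosen after their values were seen, were also lowest in WT replicate 1. Klf4, Klf6, Fos and Junb were not called between KO and WT by the edgeR QLF test. Klf1, another of the 6, was called higher in KO (edgeR QLF FDR = 0.0024). Its place among them rested on 1 count in WT replicate 1, under the 3 counts taken as detection.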
